A study of Mus musculus with 10 samples.

Results

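The 5 genes described here, Ciita, Nlrc5, Rfx5, Rfxap and Rfxank, encode regulators that switch on the genes of MHC antigen presentation. They are identified by gene symbol, with no threshold on a measured value, and are 5 of the 22607 genes to which the transcripts of the table could be assigned. RFX5, RFXAP and RFXANK form a single complex that sits on the X box of MHC promoters beside factors of the CREB family, with NF-Y on the neighbouring Y box. CIITA binds no DNA itself but docks on this platform at MHC class II promoters and recruits the transcription machinery. Its own transcription is the step at which cells are known to decide whether they make class II molecules, the peptide receptors read by helper T cells. NLRC5, a relative of CIITA in the NLR family, uses the same platform at MHC class I promoters, whose products are read by cytotoxic T cells.

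Polyadenylated RNA was sequenced from antigen-presenting cells of WT C57BL/6 mice aged 8 weeks, with 2 libraries in each of 5 groups. The groups were colonic MHCII+ cells, set against splenic MHCII+ cells, and colonic CD11b+CD11c+, CD11b+ and CD11c+ cells, a separate set sorted on integrins that mark myeloid and dendritic cells. The tissue and gate of each library were read from abbreviated titles and the text of the series, and no treatment and no further gate is given in the sources used here. No label states that both libraries of a group are from different mice. The p-values therefore reflect variation among the sequenced libraries alone, which could be technical.

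Estimated counts totalled 12806139 to 41769042 a library. Levels are given as CPM, the count scaled to the size of the library, with library sizes scaled by the TMM method over all 10 libraries. Itgam, which encodes CD11b, was at 752.1 and 875 CPM in CD11b+CD11c+ libraries and 760.2 and 766.1 CPM in CD11b+ libraries, against 26.9 and 41.5 CPM in CD11c+ libraries. Itgax, which encodes CD11c, was at 736.2 and 850.9 CPM in CD11b+CD11c+ libraries and at 816.6 and 968.2 CPM in CD11c+ libraries, but also at 503 and 574.1 CPM in CD11b+ libraries. Transcripts of plasma cells were abundant in the 8 colonic libraries. There, 8 plasma cell markers summed to between 10926.5 and 40445.2 CPM, against 187.0 and 173.1 CPM in the splenic libraries. Over all 10 libraries Igha and Jchain had means of 13300 and 1860 CPM, and no other marker of the 8 had a mean above 104 CPM. The colonic sums are therefore mostly those of Igha and Jchain. In CD11c+ cells, 10 macrophage markers summed to 181.2 CPM in library 1 and 1191.4 CPM in library 2, so these libraries stood apart from each other in that content, and results on CD11c+ cells are given with and without each of them where a call changed.

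Ciita (ENSMUSG00000022504.10) lies on the plus strand of mouse chromosome 16 from 10480059 to 10528418 in build mm10. Its transcripts start at separate promoters and differ in the first coding exon. In the mouse the most upstream promoter is known from dendritic cells and macrophages, the next from B cells and plasmacytoid dendritic cells, and the most downstream from cells under interferon gamma. The annotation assigns no transcript to these promoters. The table held 3 long forms that differ from each other in the first coding exon. They were Ciita-205, which starts at 10480059, Ciita-201, which starts at 10488279, and Ciita-203, which starts at 10489781. A short entry of 237 bases, Ciita-204, starts at 10489783, and its first coding exon has 43 coding bases, as in Ciita-203. A further long entry, Ciita-206, has 0 stretches of 31 bases of its own and was at or near 0 in every library. The coding starts of the 3 forms are shown because only these bases tell the long forms apart. The first coding exon, with 283, 52 and 43 coding bases, is in capitals, and the 15 bases in lower case begin the 3182 coding bases that are identical in all 3 forms (GENCODE M21, 5′ to 3′):
Ciita-205: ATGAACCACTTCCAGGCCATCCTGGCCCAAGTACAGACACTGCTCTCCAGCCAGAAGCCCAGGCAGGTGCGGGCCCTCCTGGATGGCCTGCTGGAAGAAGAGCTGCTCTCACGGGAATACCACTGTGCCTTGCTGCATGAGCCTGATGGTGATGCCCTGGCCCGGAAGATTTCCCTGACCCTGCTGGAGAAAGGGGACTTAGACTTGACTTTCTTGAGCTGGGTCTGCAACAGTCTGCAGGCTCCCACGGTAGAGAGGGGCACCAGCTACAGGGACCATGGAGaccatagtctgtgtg
Ciita-201: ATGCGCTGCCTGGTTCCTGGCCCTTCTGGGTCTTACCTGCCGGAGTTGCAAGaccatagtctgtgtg
Ciita-203: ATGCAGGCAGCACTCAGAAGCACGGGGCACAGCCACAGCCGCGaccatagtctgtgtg

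Promoter stretches with X and Y box letters are shown next, since class II genes carry these boxes close to the start of transcription. RefSeq promoter windows (GRCm38.p6, 250 bases before to 50 after the start) were at hand for 8 of 10 class II genes and, among the 5 regulators, for Rfx5 and Rfxank. An X box core written CNNGNAAC, followed after 10 to 40 bases by ATTGG, the inverted CCAAT of the Y box, was on the gene's own strand in 6 of the 8 class II genes. The same letters were in neither regulator's window and in 0.654% of all 32851 windows, or 1.3% on either strand. The letters of this core were relaxed after the sequences had been seen, so 6 of 8 against 0.654% is a description and not a test. Whether or not a Y box followed, the stricter core CCNNGCNAC was present in windows of H2-Oa, H2-Ob, H2-DMa, H2-K1 and H2-D1. It was in 16.8% of all windows on either strand, and in 0.25% when followed by the Y box on the gene's own strand. The X box core and the Y box are in capitals:
H2-Aa, chr17:34287859-34287915, minus strand: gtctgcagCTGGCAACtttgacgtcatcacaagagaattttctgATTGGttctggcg
H2-Eb1, chr17:34305765-34305820, plus strand: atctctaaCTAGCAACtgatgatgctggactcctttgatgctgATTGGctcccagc
H2-Eb2, chr17:34325532-34325587, plus strand: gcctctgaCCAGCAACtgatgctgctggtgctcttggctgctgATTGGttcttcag
H2-DMb1, chr17:34153086-34153142, plus strand: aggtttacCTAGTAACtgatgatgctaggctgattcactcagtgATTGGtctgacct
H2-Oa, chr17:34092292-34092348, plus strand: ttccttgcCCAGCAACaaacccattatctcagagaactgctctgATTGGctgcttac
H2-Ob, chr17:34238807-34238860, plus strand: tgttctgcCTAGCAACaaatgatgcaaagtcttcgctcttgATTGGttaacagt
In these 6 genes 25 to 28 bases lay between the capitals, which do not overlap, and the Y box began 43 to 100 bases before the start. The windows of Rfx5 (chromosome 3, 94953858 to 94954157) and Rfxank (chromosome 8, 70139148 to 70139447) each held ATTGG at 2 places, which 37.4% of all windows hold at least once on either strand. Neither held TTCNNNGAA, the GAS element bound by STAT factors, or GAAANNGAA, an element of interferon regulatory factors, which 8.3% and 8.56% of all windows hold on either strand. A match describes letters and not binding, and the absence of a match says only that these letters are not in this window.

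Ciita had the widest range of the 5 regulators. It was at 44.7 and 54.3 CPM in colonic MHCII+ libraries and at 630.3 and 578.5 CPM in splenic MHCII+ libraries. In the integrin-sorted colonic cells it was at 94.99 and 97.96 CPM in CD11b+CD11c+ libraries, 43.3 and 54.6 CPM in CD11b+ libraries and 104.2 and 122.9 CPM in CD11c+ libraries. Both splenic libraries stood above all others, CD11c+ libraries stood above CD11b+CD11c+ libraries, and the colonic MHCII+ and CD11b+ libraries overlapped at the low end. The highest group mean, 604.4 ± 36.6 CPM in splenic MHCII+ cells, was 12.3 times the lowest, 48.9 ± 8.04 CPM in CD11b+ cells (SD, n = 2 each).

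Nlrc5 (ENSMUSG00000074151.13, chromosome 8, 94434356 to 94527272, plus strand) spanned 2.97-fold between group means. It was at 54.1 and 57.8 CPM in colonic MHCII+ libraries and at 170.6 and 161.6 CPM in splenic MHCII+ libraries. Among integrin-sorted cells it was at 80.7 and 84.7 CPM in CD11b+CD11c+ libraries, 59.6 and 61.5 CPM in CD11b+ libraries and 132.3 and 90.8 CPM in CD11c+ libraries. No neighbouring groups overlapped, the splenic group was again the highest and CD11c+ the next, and the CD11c+ libraries were the farthest apart.

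Rfx5 (ENSMUSG00000005774.12, chromosome 3, 94954075 to 94961561, plus strand) encodes the subunit with the RFX DNA-binding domain and stood apart in splenic cells. It was at 21.3 and 32.9 CPM in colonic MHCII+ libraries and at 70.9 and 68.4 CPM in splenic MHCII+ libraries. The 6 integrin-sorted libraries lay between 22.2 and 24.5 CPM, and all 4 colonic groups overlapped with their neighbours in the order of levels.

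Rfxap and Rfxank encode the other subunits, an acidic and proline-rich protein and an ankyrin repeat protein. Rfxap (ENSMUSG00000036615.6, chromosome 3, 54803115 to 54807791, minus strand) was at 17.7 and 20.2 CPM in colonic MHCII+ libraries and at 23.3 and 20.7 CPM in splenic MHCII+ libraries. It was at 17.4 and 13.6 CPM in CD11b+CD11c+ libraries, 13 and 15.2 CPM in CD11b+ libraries and 25.99 and 22.67 CPM in CD11c+ libraries, so that CD11c+ was its highest group, in overlap with the splenic one. Rfxank (ENSMUSG00000036120.10, chromosome 8, 70130794 to 70139154, minus strand) was at 9.33 and 9.53 CPM in colonic MHCII+ libraries and at 15.2 and 16.7 CPM in splenic MHCII+ libraries. Its levels in the sorted colonic cells were 9.33 and 9.52 CPM in CD11b+CD11c+ libraries, 8.83 and 8.18 CPM in CD11b+ libraries and 13.7 and 9.95 CPM in CD11c+ libraries. Group means spanned 3.01-fold for Rfx5, 1.87-fold for Rfxank and 1.73-fold for Rfxap.

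**Figure D1:**
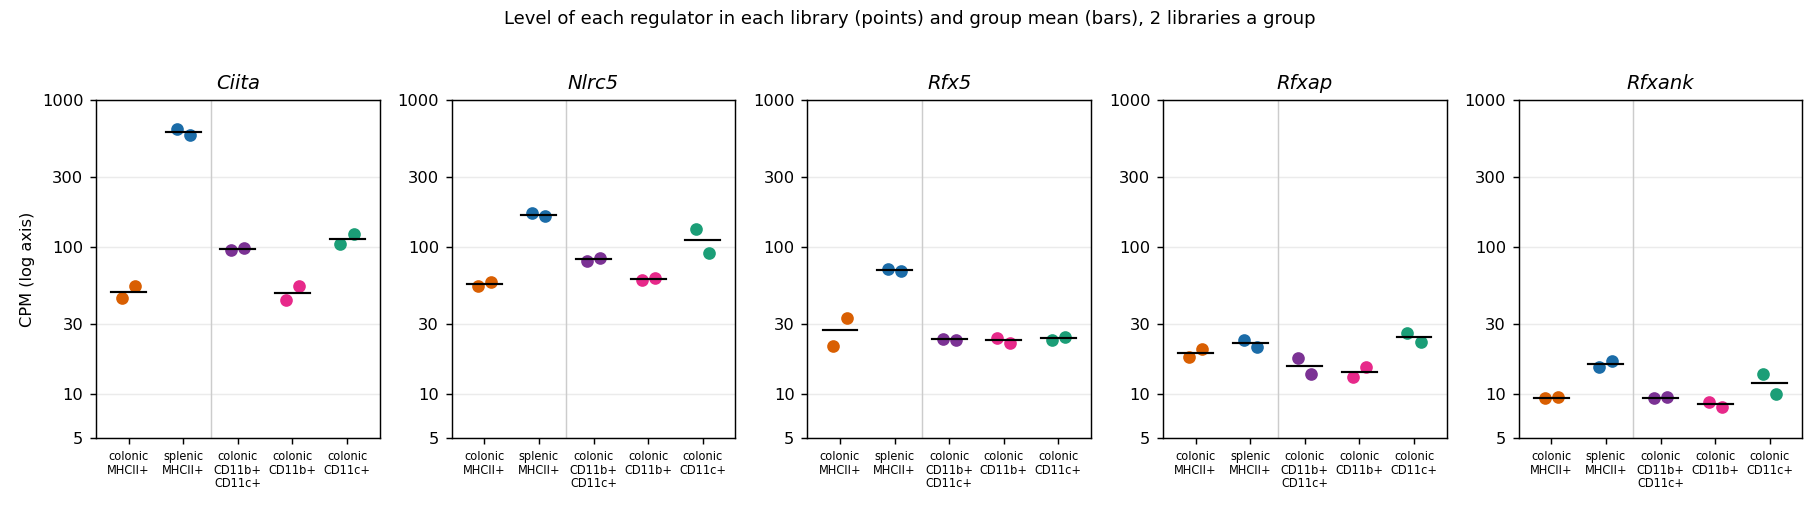
CPM of the 5 regulators on log axes, with 1 point a library, a bar at each group mean, the MHCII+ groups left of the grey line and the integrin-sorted groups right of it. Ciita spans 43.3 to 630.3 CPM over the libraries, and Rfx5 stays between 21.3 and 32.9 CPM outside the splenic group.

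Levels of different genes can be compared only per length. Short annotated fragments held 57.6% to 85.2% of the TPM (transcript abundance per length, scaled to the library) of Nlrc5 and Rfx5, so genes are compared here by the TPM of transcripts with at least 50% of the longest coding length of their gene, a measure chosen after the data had been seen. On this scale Ciita was at 7.04 and 8.92 TPM in colonic MHCII+ libraries and at 109.3 and 107.4 TPM in splenic MHCII+ libraries, while Nlrc5 was at 4.56 and 4.84 TPM and at 15.6 and 15.7 TPM in the same libraries. There were 0.647 and 0.543 TPM of Nlrc5 per TPM of Ciita in colonic MHCII+ libraries, against 0.143 and 0.146 in splenic MHCII+ libraries. Rfxap, the least changed gene between these groups, was at 19.2 and 21.3 TPM in colonic MHCII+ libraries and at 27.1 and 25.2 TPM in splenic MHCII+ libraries. Within the complex, Rfx5 and Rfxank were below Rfxap in all 10 libraries on this scale. Rfx5 held 0.211 to 0.776 and Rfxank 0.369 to 0.672 TPM per TPM of Rfxap. The order of Rfx5 and Rfxap depends on this measure. With the fragments included, Rfx5 was at 62.1 and 71.4 TPM in splenic MHCII+ libraries, against 27.1 and 25.2 TPM of Rfxap. In colonic MHCII+ libraries it was then at 15.7 and 21.2 TPM, against 19.2 and 21.3 TPM of Rfxap.

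Colonic MHCII+ cells were compared with splenic MHCII+ cells to see how the regulators of presentation differ between gut and spleen. In edgeR's quasi-likelihood test, 4 of the 5 regulators were lower in colonic cells at a Benjamini-Hochberg adjusted p under 0.05, on a background where 28.7% of the 15076 genes tested were lower, 31.6% were higher and 60.3% were called in either direction. Ciita was 12.1-fold lower (log2 −3.59, SE 0.143, adjusted p = 7.27e-06). Nlrc5 was 2.94-fold lower (log2 −1.55, SE 0.098, adjusted p = 3.55e-05) and Rfx5 was 2.55-fold lower (log2 −1.35, SE 0.207, adjusted p = 0.0017). Rfxank was 1.67-fold lower (log2 −0.74, SE 0.166, adjusted p = 0.00863), a call that ended without splenic library 2 (adjusted p = 0.0549). Rfxap did not pass the test, with a log2 change of −0.20 and a 95% interval of −0.58 to 0.18. Folds come from fits of the MHCII+ libraries and the integrin-sorted libraries apart, whereas CPM are scaled over all 10 libraries.

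In RNA of sorted pools, fewer cells of a type and less RNA per cell cannot be told apart. All 10 B cell markers were lower in colonic MHCII+ cells, at summed levels of 86.9 and 92.8 CPM against 1608.5 and 1699.0 CPM in splenic cells. All 10 epithelial markers were higher, at 4786.1 and 4718.2 CPM in colonic MHCII+ cells against 12.9 and 15.7 CPM in splenic cells, where Spdef was at 0. Of 6 genes common to leukocytes, 5 were lower and Cd53 was higher (log2 0.42, adjusted p = 0.013). Sums of the 6 genes were 2962.4 and 2959.8 CPM in colonic cells against 6511.1 and 6892.4 CPM in splenic cells. Per 1000 CPM of these leukocyte genes, Ciita was at 15.1 and 18.4 CPM in colonic MHCII+ libraries against 96.8 and 83.9 CPM in splenic ones, and Nlrc5 was at 18.3 and 19.5 CPM against 26.2 and 23.4 CPM. The 10 markers of conventional dendritic cells summed to 1288.4 and 1452.2 CPM in colonic cells against 3401.5 and 2882.3 CPM in splenic cells, with 9 lower and 1 higher. Granulocyte markers were at 506.2 and 425.0 CPM in colonic cells against 4412.7 and 6423.5 CPM in splenic cells, with 6 lower and 2 higher. T and NK cell markers were at 121.2 and 172.1 CPM in colonic cells against 289.1 and 357.9 CPM, with 7 lower. Macrophage markers were at 2314.6 and 2049.4 CPM in colonic cells against 1009.9 and 1124.1 CPM in splenic cells, with 7 higher and 1 lower. The 10 markers of stroma and endothelium, called stromal here, summed to 1113.4 and 1357.8 CPM in colonic cells against 174.4 and 346.1 CPM. Of these, 7 were higher, and the endothelial genes Pecam1, Cdh5 and Kdr were lower (log2 −2.22, −2.21 and −2.37). The part of these cell types in the lower regulator levels was not tested.

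**Figure D2:**
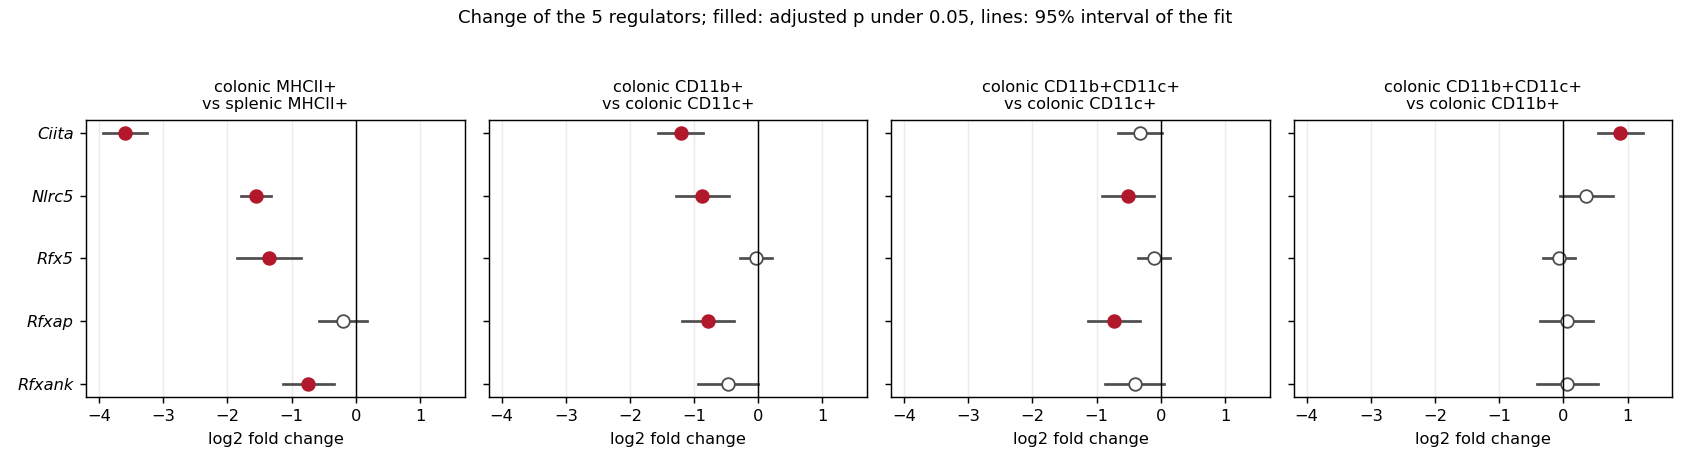
Log2 fold changes of the 5 regulators in the 4 comparisons, with the first named group over the second, lines for 95% intervals of the fit and filled points for adjusted p under 0.05. Ciita lies at −3.59 between colonic and splenic MHCII+ cells and at 0.89 between CD11b+CD11c+ and CD11b+ cells.

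The classical class II genes, which CIITA switches on, did not pass the test between the same cells. Of 10 class II chains and peptide editors, 5 were lower in colonic MHCII+ cells and the other 5 did not pass, with a median log2 change of −0.20 against 0.02 for all genes. Cd74, the invariant chain that guides class II molecules, was at 6542.9 and 7738 CPM in colonic MHCII+ libraries and at 8100.1 and 7384.5 CPM in splenic ones (log2 −0.10, SE 0.141, adjusted p = 0.57). The peptide-binding chains H2-Aa, H2-Ab1 and H2-Eb1 had log2 changes of 0.12, 0.10 and 0.00, none of which passed. Both groups were sorted on class II protein, and the part of that gate in the transcript levels was not tested. The 5 that were lower were H2-Eb2, H2-DMb2, H2-Oa, H2-Ob and H2-DMa, named here because their values stood out, and H2-DMa lost its call without colonic library 1 or without either splenic library (adjusted p of 0.092 to 0.16).

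H2-Oa and H2-Ob encode H2-O, the brake on the peptide editor H2-DM. H2-Oa was at 30.6 and 29 CPM in colonic MHCII+ libraries against 161.5 and 166.7 CPM in splenic ones (log2 −2.44, SE 0.0931, adjusted p = 6.4e-06). H2-Ob was at 84.5 and 121 CPM in colonic MHCII+ libraries against 284.1 and 282 CPM in splenic ones (log2 −1.44, SE 0.179, adjusted p = 0.00065). H2-O made up 16.7% and 21.6% of the TPM of H2-DM in colonic MHCII+ libraries and 46.5% and 50.3% in splenic ones. H2-DMb1 and H2-DMb2 are close copies, and the division of reads between them is uncertain.

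Among 16 class I and peptide-loading genes, the setting of NLRC5, 9 were lower in colonic MHCII+ cells, 1 was higher and 6 did not pass, with a median log2 change of −0.52. B2m, the shared light chain of class I molecules, was at 829.5 and 758.9 CPM in colonic MHCII+ libraries against 1274.8 and 1346.2 CPM in splenic ones (log2 −0.71, SE 0.102, adjusted p = 0.0013). H2-T23, which encodes the nonclassical molecule Qa-1, was lower too, at 258.6 and 278.6 CPM against 480.1 and 488.4 CPM (log2 −0.83, adjusted p = 0.00055). The classical heavy chains H2-D1 and H2-K1 had log2 changes of −0.17 and −0.13 and did not pass. Class I heavy chain genes are near-identical copies of each other, so their separate values are uncertain.

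Among the DNA-binding partners of the complex, few passed in this comparison. Of 6 CREB and NF-Y genes, 1 was higher, Crem, and 1 was lower, Nfya, the NF-Y subunit that contacts the CCAAT box. Crem, which encodes activating and repressing relatives of CREB, was at 232.4 and 248.7 CPM in colonic MHCII+ libraries against 5.67 and 6.38 CPM in splenic ones (log2 5.34, SE 0.125, adjusted p = 2.1e-06). Creb1, Atf1 and Nfyc had log2 changes of 0.07, −0.03 and −0.41 and did not pass. Of 10 coactivator and elongation genes that CIITA is known to recruit, 7 were lower and the others did not pass. Among the 7 were Ep300 (log2 −1.73), Crebbp (log2 −0.77) and Smarca4 (log2 −0.41), while Cdk9 had a log2 change of −0.16. Smarca4 and Carm1 each lost the call without splenic library 1, at adjusted p of 0.0633 and 0.158, and Carm1 also without colonic library 2 (0.0694) or splenic library 2 (0.069).

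The genes that lead to Ciita were mixed. Of 10 genes on the interferon gamma route, 2 were higher in colonic MHCII+ cells and 3 were lower. Jak2, a kinase of the receptor, was higher (log2 0.51, adjusted p = 0.0044), whereas Ifngr1, Jak1 and Irf1 did not pass, with log2 changes of 0.19, −0.13 and 0.14. Of 10 lineage factors known from the Ciita promoters, 2 were higher and 6 were lower. Prdm1 and Xbp1, factors of plasma cells, rose (log2 2.63 and 1.61, adjusted p = 4.7e-05 and 2.4e-05), and PRDM1 is known to silence Ciita in plasma cells. Prdm1 is also 1 of the 8 plasma cell markers, of which 7 were higher and Pou2af1 was lower (log2 −1.18). Irf8, a factor of dendritic cells, was lower (log2 −1.23, adjusted p = 0.00032), and Spi1, which encodes PU.1, did not pass (log2 −0.21).

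Of the RFX family outside the complex, 5 of 7 genes were expressed enough to be tested, and 3 were lower and 1 higher. Rfx7, Rfx3 and Rfx1 were lower (log2 −1.48, −0.91 and −0.48), and Rfx2 did not pass (log2 0.45). Rfx6, the gene called higher, was at 0.746 and 0.426 CPM in colonic MHCII+ libraries and at 0 in both splenic libraries.

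The integrin-sorted comparisons share their libraries in pairs, so they are not independent of each other, and the values of each are given side by side. The regulators were compared between CD11b+ cells, high in macrophage markers, and CD11c+ cells, high in most dendritic cell markers. Of the 5 regulators 3 were lower in CD11b+ cells, on a background where 25% of the 14225 genes tested were lower, 27% were higher and 52% were called in either direction. Ciita was 2.31-fold lower (log2 −1.21, SE 0.144, adjusted p = 0.00144), a call that held in all 11 alternatives. Nlrc5 was 1.83-fold lower (log2 −0.87, SE 0.169, adjusted p = 0.00723) and Rfxap was 1.72-fold lower (log2 −0.78, SE 0.167, adjusted p = 0.0102). Both calls ended without CD11b+ library 1 (adjusted p = 0.0506 and 0.0706). Rfx5 did not pass, with an interval of −0.29 to 0.21 on the log2 scale, nor did Rfxank, with −0.93 to −0.01 and an adjusted p of 0.0809, which became 0.0241 without CD11c+ library 2.

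Markers of several cell types moved with this comparison. The 10 macrophage markers were all higher in CD11b+ cells, at summed levels of 7959.4 and 9042.7 CPM against 181.2 and 1191.4 CPM in CD11c+ cells. The 10 dendritic cell markers summed to 422.0 and 412.1 CPM against 4440.2 and 4713.1 CPM, with 9 lower. The other, Cd209a, was higher in CD11b+ cells (log2 2.24, adjusted p = 0.00076). The 8 plasma cell markers summed to 16517.8 and 13431.7 CPM in CD11b+ cells against 30851.4 and 40445.2 CPM in CD11c+ cells, with 7 lower. Prdm1 alone of them was higher in CD11b+ cells (log2 2.22, adjusted p = 0.0045). T and NK cell markers were all lower, at 24.3 and 26 CPM against 713.5 and 252.9 CPM. The 10 granulocyte markers summed to 835.7 and 757.4 CPM against 2.8 and 3.03 CPM, with S100a8 and Camp at 0 in CD11c+ cells, and 10 stromal markers to 4465.2 and 4027.0 CPM against 1322.8 and 1488.1 CPM. The leukocyte genes were near level, at 3740.5 and 3946.2 CPM against 4097.1 and 3730.3 CPM, and Ciita per 1000 of their CPM was at 11.6 and 13.8 in CD11b+ cells against 25.4 and 32.9 in CD11c+ cells. The part of these cell types in the regulator levels was not tested.

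Class II genes were lower in CD11b+ cells for 7 of 10, and the other 3 did not pass, with a median log2 change of −0.89 against −0.02 for all genes. H2-Ab1 was at 3594.6 and 5107.5 CPM in CD11b+ libraries against 6909.7 and 8176.3 CPM in CD11c+ libraries (log2 −0.79, SE 0.194, adjusted p = 0.017), and lost the call without CD11b+ library 1 (adjusted p = 0.06) or CD11c+ library 2 (adjusted p = 0.0504). Cd74, H2-Aa and H2-Eb1 had log2 changes of −0.35, −0.45 and −0.51 and did not pass. The H2-O genes showed the widest gap of the list: H2-Ob was at 25.5 and 28.3 CPM in CD11b+ libraries against 220.5 and 233.4 CPM in CD11c+ libraries (log2 −3.07, SE 0.199, adjusted p = 0.00028). H2-O was at 6.83% and 5.63% of H2-DM in CD11b+ libraries against 24.7% and 23.6% in CD11c+ libraries.

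Class I genes were lower in CD11b+ cells for 10 of 16 and higher for 2. The immunoproteasome subunit genes Psmb8 and Psmb9 and the peptide transporter genes Tap1 and Tap2 were among the 10, while the subunit gene Psmb10 did not pass (log2 −0.24, adjusted p = 0.054). Psmb9 was at 35 and 36.7 CPM in CD11b+ libraries against 195.2 and 181.8 CPM in CD11c+ libraries (log2 −2.39, SE 0.132, adjusted p = 0.00021), and Tap1 was at 119.4 and 95.4 CPM against 383.6 and 397 CPM (log2 −1.85, SE 0.177, adjusted p = 0.00072). H2-T23 was lower as well (log2 −0.47, adjusted p = 0.0048). The 2 genes that were higher were H2-D1 (log2 0.34, adjusted p = 0.035) and B2m (log2 0.38, adjusted p = 0.025), and each lost its call without CD11b+ library 1 (adjusted p = 0.102 and 0.0677), CD11b+ library 2 (0.143 and 0.156) or CD11c+ library 2 (0.143 and 0.0918). H2-K1 did not pass (log2 0.06). Psmb8, Psmb9, Psmb10, Tap1 and Tap2 were named after their values had been seen.

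Among the partners, 1 of 6 CREB and NF-Y genes was lower in CD11b+ cells, Crem (log2 −1.21, adjusted p = 0.0012), and 1 was higher, Atf1 (log2 0.29, adjusted p = 0.035), which lost its call without any 1 of the 4 libraries (adjusted p of 0.0599 to 0.215). Of 10 coactivators 1 was higher, Cdk9 (log2 0.40), and 2 were lower, Kat2b (log2 −0.59) and Cdk7 (log2 −0.49). All 3 calls ended without CD11b+ library 1 (adjusted p of 0.0568 to 0.0659), and that of Cdk9 also without CD11b+ library 2 (0.143) or CD11c+ library 1 (0.0911), whereas Smarca4, Ep300 and Crebbp had log2 changes of −0.05, −0.08 and −0.06 and did not pass. Of 10 interferon gamma route genes 4 were higher and 4 were lower: the receptor chain Ifngr1 (log2 −1.48) and Jak2 (log2 −1.38) were lower, and Jak1 (log2 0.57) and Irf1 (log2 0.90) were higher. Of 9 lineage factors tested 2 were higher, Spi1 (log2 1.00) and Prdm1 (log2 2.22), and 2 were lower, among them Irf8, at 99.4 and 117.6 CPM in CD11b+ libraries against 446.2 and 466.7 CPM in CD11c+ libraries (log2 −2.07, SE 0.117, adjusted p = 0.00022). Of 4 other RFX genes tested 3 were lower, Rfx7 (log2 −1.17), Rfx1 (log2 −0.27) and Rfx3 (log2 −0.66), and Rfx1 and Rfx3 lost their calls without any 1 of the 4 libraries (adjusted p of 0.0572 to 0.212).

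CD11b+CD11c+ cells, which carry both integrins, were set against CD11c+ cells. Of the 5 regulators 2 were lower in CD11b+CD11c+ cells, where 22.5% of the genes tested were lower, 20.4% were higher and 43% were called in either direction. Of all 6110 calls 47.59% were higher, and without CD11b+CD11c+ library 2 it was 64.61% of 3190 calls. Rfxap was 1.65-fold lower (log2 −0.73, SE 0.167, adjusted p = 0.0159), a call lost without CD11b+CD11c+ library 2 (0.111) or CD11c+ library 1 (0.0578). Nlrc5 was 1.43-fold lower (log2 −0.51, SE 0.168, adjusted p = 0.0497), and this call held in 1 of 11 alternatives. It ended without CD11b+CD11c+ library 1 (adjusted p = 0.16), CD11b+CD11c+ library 2 (0.208) or CD11c+ library 1 (0.149). Ciita did not pass, with a log2 change of −0.32 and an interval of −0.66 to 0.03, and Rfx5 and Rfxank did not pass with intervals of −0.36 to 0.15 and −0.87 to 0.05. Rfxank passed without CD11c+ library 2 (log2 −0.61, adjusted p = 0.0394).

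The macrophage markers were all 10 higher in CD11b+CD11c+ cells, at 9800.0 and 13001.0 CPM against 181.2 and 1191.4 CPM in CD11c+ cells. Dendritic cell markers summed to 1993.0 and 1274.3 CPM against 4440.2 and 4713.1 CPM, with 8 of 10 lower and 1 higher. Plasma cell markers summed to 13479.3 and 10926.5 CPM in CD11b+CD11c+ cells against 30851.4 and 40445.2 CPM in CD11c+ cells. Of the 8, 7 were lower and Prdm1 was higher. All 10 T and NK cell markers were lower, at 40.9 and 12.4 CPM in CD11b+CD11c+ cells against 713.5 and 252.9 CPM in CD11c+ cells. Granulocyte markers were at 71.3 and 96.3 CPM in CD11b+CD11c+ cells against 2.8 and 3.03 CPM in CD11c+ cells, and stromal markers at 937.9 and 782.4 CPM against 1322.8 and 1488.1 CPM. Their part in the regulator levels was not tested. Class II genes were lower for 2 of 10, H2-Oa (log2 −0.95, adjusted p = 0.016) and H2-Ob (log2 −1.25, adjusted p = 0.0036), and the other 8 did not pass. Cd74, H2-Ab1, H2-Aa and H2-Eb1 had log2 changes between −0.10 and 0.16 and did not pass. Class I genes were lower for 7 of 16 and higher for 2, H2-D1 (log2 0.45) and B2m (log2 0.35). The H2-D1 call ended without CD11b+CD11c+ library 1 (adjusted p = 0.0617) or CD11c+ library 2 (0.0636), and the B2m call without any 1 of the 4 libraries (adjusted p of 0.0517 to 0.137). H2-T23 was lower (log2 −0.37), a call lost without CD11b+CD11c+ library 1 (0.0523) or library 2 (0.104), and H2-K1 did not pass (log2 0.17). The count of lower class I genes was 4 without CD11b+CD11c+ library 2.

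Of 6 CREB and NF-Y genes 1 was higher, Creb1 (log2 0.43), whose call was lost without CD11b+CD11c+ library 1 (adjusted p = 0.0858), library 2 (0.102) or CD11c+ library 2 (0.0888), and 1 was lower, Crem (log2 −0.77, adjusted p = 0.0063). Of 10 coactivators 2 were lower, Kat2b (log2 −0.43) and Cdk7 (log2 −0.51). The Kat2b call ended without any 1 of the 4 libraries (adjusted p of 0.0513 to 0.133) and the Cdk7 call without CD11b+CD11c+ library 2 (0.0891). Of 10 interferon gamma route genes 4 were higher, Jak1 (log2 0.64) and Irf1 (log2 0.63) among them, and 3 were lower, among them Ifngr1 (log2 −1.31), while Jak2 did not pass (log2 −0.01). Of 9 lineage factors 4 were higher, including Spi1 (log2 0.79) and Prdm1 (log2 2.26), and 3 were lower, including Irf8 (log2 −1.62). Of 4 other RFX genes 3 were lower, Rfx7 (log2 −0.76), Rfx1 (log2 −0.67) and Rfx3 (log2 −0.98), and the Rfx3 call ended without CD11b+CD11c+ library 1 (0.0505), library 2 (0.11) or CD11c+ library 1 (0.0627).

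CD11b+CD11c+ cells were last set against CD11b+ cells, and Ciita was the 1 regulator of 5 that passed the test. Ciita was 1.85-fold higher in CD11b+CD11c+ cells (log2 0.89, SE 0.144, adjusted p = 0.0154), on a background where 3.79% of the genes tested were higher, 5.84% were lower and 9.63% were called in either direction. Of all calls, 39.34% were higher, a share that was 51.93% with DESeq2, 55.83% with no count filter, 60.54% with all 10 libraries in 1 fit, 27.22% with limma on TPM and 17.26% to 52.53% when any 1 library was left out. The Ciita call ended without CD11b+CD11c+ library 1 (adjusted p = 0.0876), CD11b+CD11c+ library 2 (0.0564) or CD11b+ library 1 (0.117), with log2 changes of 0.74 to 1.16 when any 1 library was left out. Nlrc5 did not pass, with a log2 change of 0.36 and an interval of −0.05 to 0.77. The intervals of Rfx5, Rfxap and Rfxank were −0.32 to 0.19, −0.36 to 0.47 and −0.41 to 0.54. Whether Ciita changed more than the other regulators was not tested.

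Markers of dendritic cells moved with Ciita in this comparison: all 10 were higher, at 1993.0 and 1274.3 CPM in CD11b+CD11c+ cells against 422.0 and 412.1 CPM in CD11b+ cells. The 10 macrophage markers had log2 changes of 0.05 to 0.79 that did not pass, with sums of 9800.0 and 13001.0 CPM against 7959.4 and 9042.7 CPM. Granulocyte markers were at 71.3 and 96.3 CPM in CD11b+CD11c+ cells against 835.7 and 757.4 CPM in CD11b+ cells, with 8 of 9 lower, and stromal markers at 937.9 and 782.4 CPM against 4465.2 and 4027.0 CPM, with 6 of 10 lower. The part of these cell types in the Ciita level was not tested.

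Class II genes were higher in CD11b+CD11c+ cells for 5 of 10, and the other 5 did not pass, with a median log2 change of 0.72 against 0.01 for all genes. They were H2-Eb2 (log2 1.55), H2-DMa (log2 0.74), H2-DMb2 (log2 2.23), H2-Oa (log2 1.80) and H2-Ob (log2 1.81), named because the count is small. The calls of H2-Eb2, H2-DMa, H2-Oa and H2-Ob ended without CD11b+ library 1, at log2 changes of 1.60, 0.63, 1.81 and 1.75. That of H2-DMa also ended without either CD11b+CD11c+ library (log2 0.75 and 0.81). That of H2-Eb2 also ended without CD11b+CD11c+ library 1 (log2 1.23) or CD11b+ library 2 (log2 1.59), and that of H2-Oa without CD11b+ library 2 (log2 1.90). H2-DMb2 was at 234.6 and 179.2 CPM in CD11b+CD11c+ libraries against 40.7 and 42.6 CPM in CD11b+ libraries (SE 0.169, adjusted p = 0.0017). Cd74, H2-Ab1, H2-Aa and H2-Eb1 had log2 changes of 0.52, 0.69, 0.50 and 0.53 and did not pass. The count of 5 became 3 without CD11b+CD11c+ library 1, 1 without CD11b+ library 1, 9 with DESeq2 and 10 with no count filter. Class I genes were higher for 3 of 16, Psmb8 (log2 0.61), Psmb9 (log2 0.68) and H2-M3 (log2 0.46), and this count was 0 without CD11b+CD11c+ library 1 or either CD11b+ library. H2-D1, H2-K1, B2m and H2-T23 lay between −0.04 and 0.11 and did not pass.

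The 6 CREB and NF-Y genes had log2 changes of −0.22 to 0.44 and the 10 coactivators of −0.17 to 0.20, and these did not pass. Jak2 was the 1 interferon gamma route gene of 10 that was higher, at 946.9 and 763.6 CPM in CD11b+CD11c+ libraries against 307.1 and 317.5 CPM in CD11b+ libraries (log2 1.37, SE 0.129, adjusted p = 0.0031). Of 9 lineage factors 1 was higher, Irf4 (log2 0.79, adjusted p = 0.015), a factor of CD11b+ dendritic cells and plasma cells, and its call ended without CD11b+CD11c+ library 1 (0.0903) or CD11b+ library 1 (0.139) or library 2 (0.0595). Of 4 other RFX genes 1 was lower, Rfx1 (log2 −0.40, adjusted p = 0.043), a call that ended without any 1 of the 4 libraries (adjusted p of 0.159 to 0.281).

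**Figure D3:**
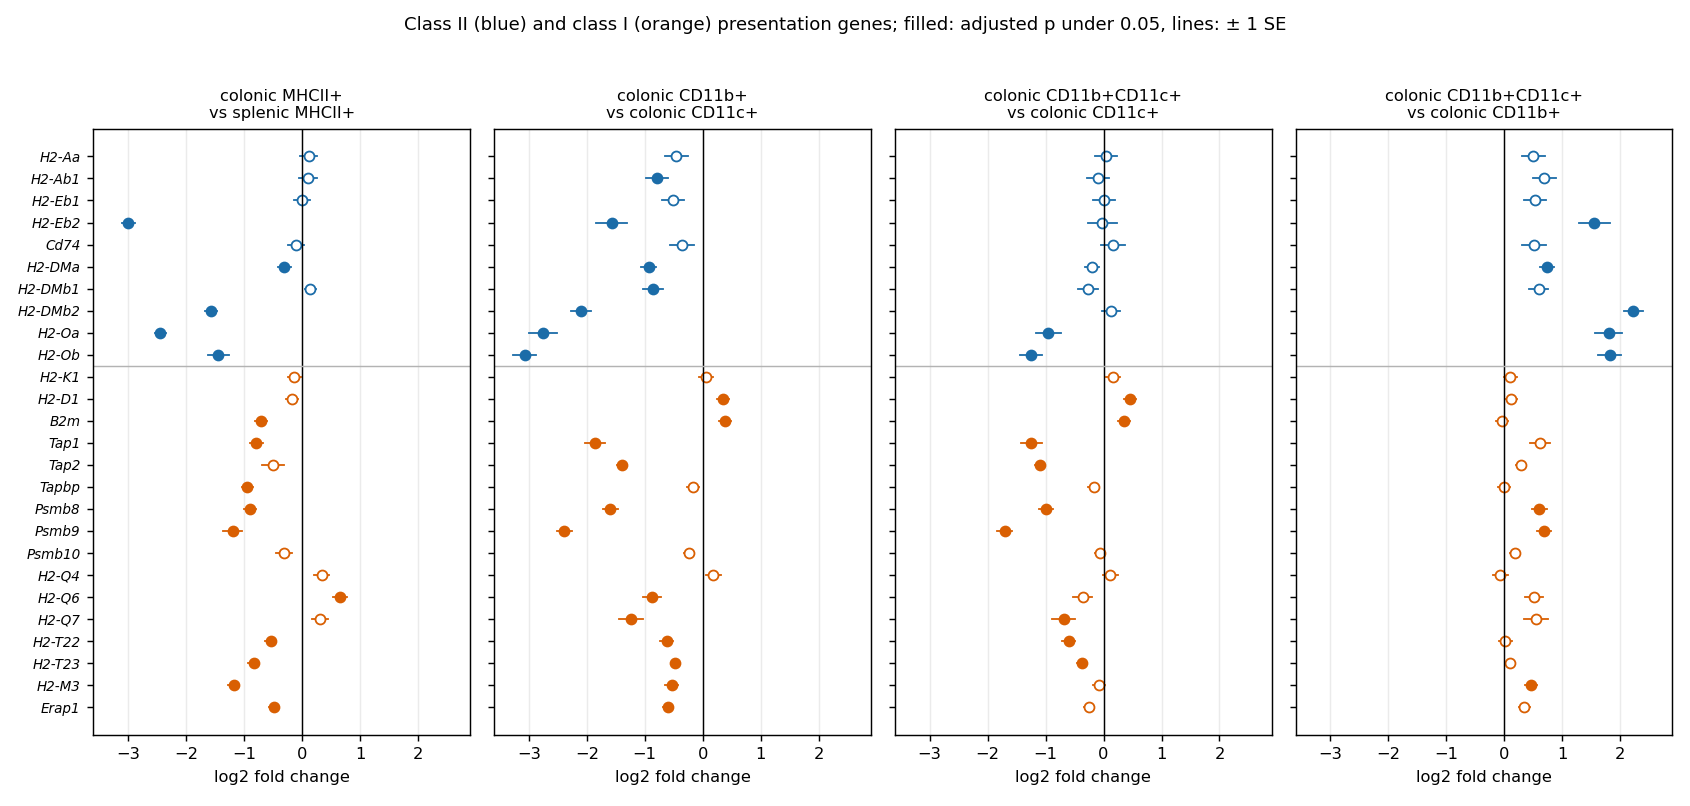
Log2 fold changes of 10 class II genes (blue) and 16 class I genes (orange) in the 4 comparisons, first named group over second, with lines for 1 SE either side and filled points for adjusted p under 0.05. In colonic against splenic MHCII+ cells H2-Aa, H2-Ab1, H2-Eb1 and Cd74 lie between −0.10 and 0.12 while H2-Oa lies at −2.44.

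Set against the transcripts it governs, Ciita was low in the colon. The classical class II genes H2-Aa, H2-Ab1, H2-Eb1 and Cd74 together held 2537.1 and 2369.0 TPM per TPM of Ciita in colonic MHCII+ libraries and 205.6 and 198.2 TPM in splenic MHCII+ libraries. The integrin-sorted cells had 2026.6 and 2243.9 TPM in CD11b+CD11c+ libraries, 2571.2 and 2895.9 TPM in CD11b+ libraries and 1646.1 and 1660.2 TPM in CD11c+ libraries. All 8 colonic libraries lay above both splenic libraries. Shorter entries, left out here, held 28.6% and 52.4% of Ciita TPM in colonic MHCII+ libraries and 25.2% and 23.5% in splenic ones. In integrin-sorted libraries they held 18.2% to 41.4%. With them, Ciita was at 9.87 and 18.7 TPM in colonic MHCII+ libraries and 146.1 and 140.4 TPM in splenic ones. The size of the class II ratio therefore depends on the measure. For class I, H2-K1, H2-D1 and B2m held 1131.0 and 944.0 TPM per TPM of Nlrc5 in colonic MHCII+ libraries and 477.0 and 493.6 TPM in splenic MHCII+ libraries. This ratio was 1013.3 and 1056.2 in CD11b+CD11c+ libraries, 1209.9 and 1409.5 in CD11b+ libraries and 486.9 and 610.6 in CD11c+ libraries, so CD11c+ library 1 lay between the splenic libraries. The ratios are descriptions with no test.

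**Figure D4:**
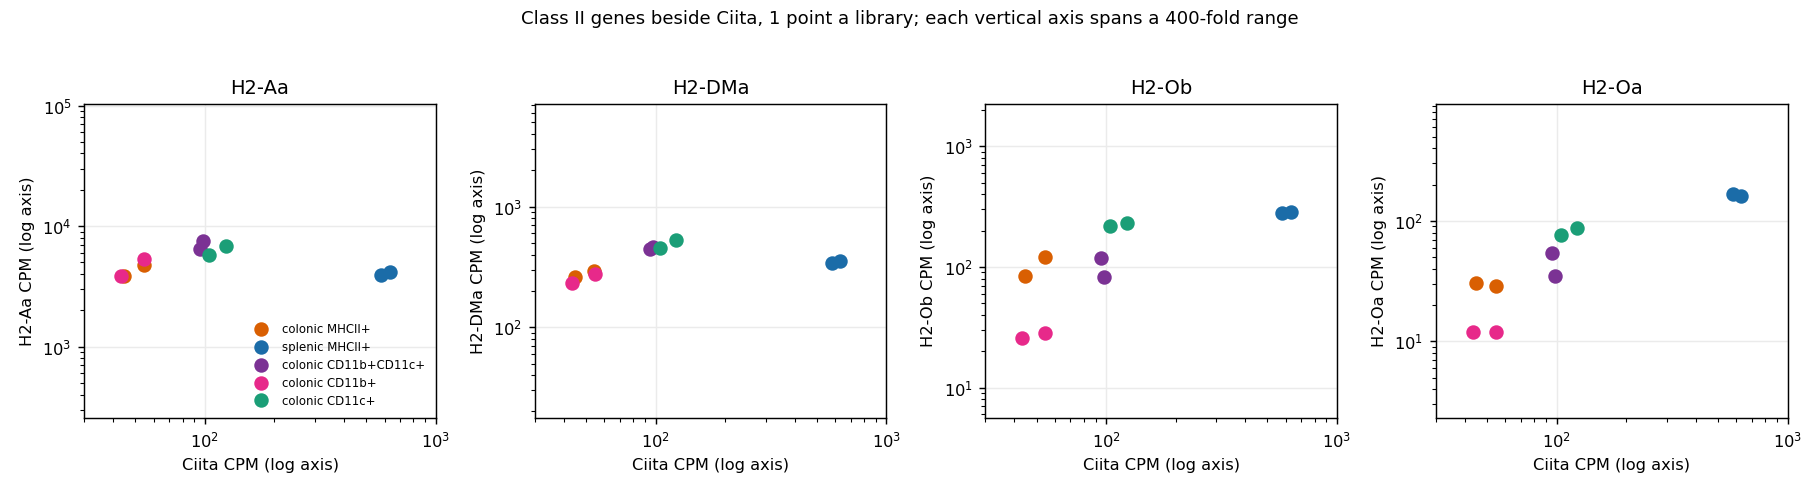
CPM of H2-Aa, H2-DMa, H2-Ob and H2-Oa against CPM of Ciita, 1 point a library, on log axes whose vertical span is the same in each panel. The splenic libraries lie far to the right, at 578.5 and 630.3 CPM of Ciita, at H2-Aa levels of 3956 and 4124.8 CPM that fall inside the colonic range, whereas their H2-Oa levels of 166.7 and 161.5 CPM are the highest.

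The 3 long forms of Ciita, whose coding starts are printed above, differed in share between libraries. Ciita-205, the most upstream form, made up 83.6% and 40.3% of the TPM of the 3 forms in colonic MHCII+ libraries and 58.9% and 57.8% in splenic MHCII+ libraries. It made up 73.5% and 76.8% in CD11b+CD11c+ libraries, 93.3% and 81% in CD11b+ libraries and 82.8% and 83.3% in CD11c+ libraries. It was the leading form in 9 of 10 libraries, and the exception, colonic MHCII+ library 2, was far from library 1 of its group.

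Ciita-201, the middle form, held most of the rest, at 16.4% and 57.3% in colonic MHCII+ libraries and 36.8% and 38.7% in splenic MHCII+ libraries. In the sorted colonic cells it stood at 26.5% and 16.5% in CD11b+CD11c+ libraries, 6.69% and 15.1% in CD11b+ libraries and 16.1% and 16.7% in CD11c+ libraries. As levels, Ciita-201 was at 1.15 and 5.11 TPM in colonic MHCII+ libraries against 40.3 and 41.5 TPM in splenic ones. Ciita-203, the downstream form, was at 0 in 4 of the 10 libraries and reached no more than 6.78%. The shares leave out the short entry Ciita-204, which starts close to Ciita-203. Ciita-204 was at 36.8 and 32.5 TPM in splenic MHCII+ libraries and at 2.83 and 8.69 TPM in colonic MHCII+ libraries. As estimated counts it held 204.6 and 150.2 in splenic libraries, against 1156 and 686.2 for Ciita-203. Use of the downstream start therefore cannot be read from Ciita-203 alone. Markers of B cells were highest in the splenic libraries, and their part in these shares was not tested.

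**Figure D5:**
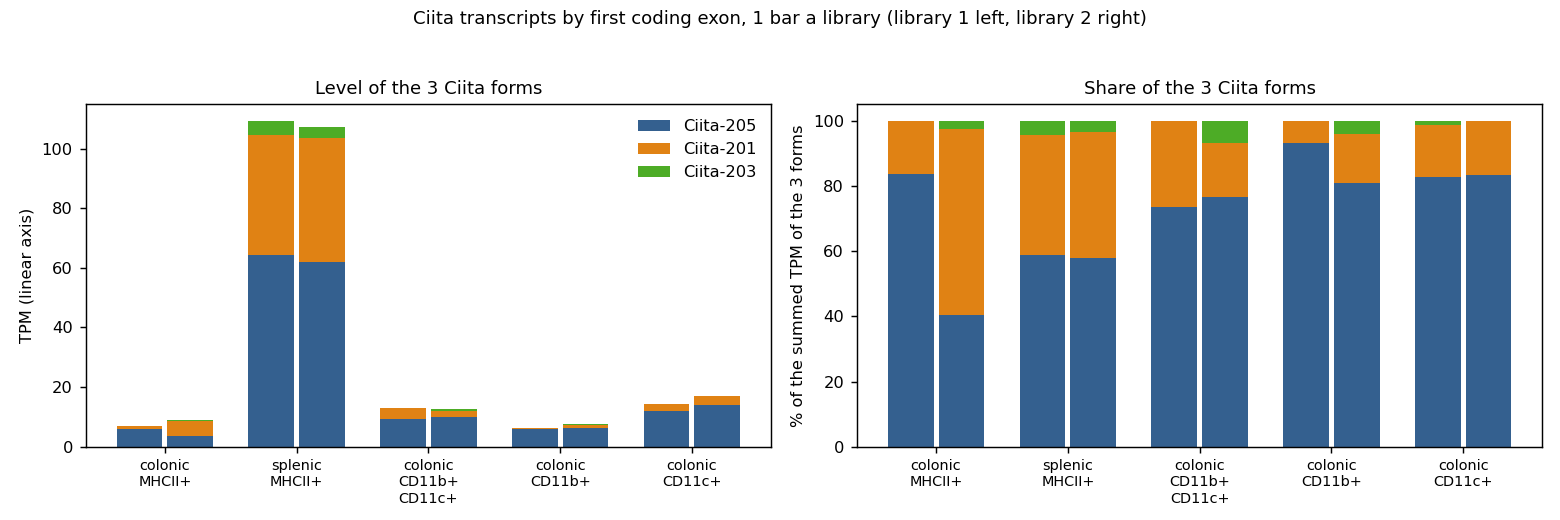
TPM of the 3 long Ciita forms (left, linear axis) and their share of the sum (right, percent), stacked with 1 bar a library and library 1 left of library 2. Ciita-205 makes up 40.3% of the sum in colonic MHCII+ library 2 and 57.8% to 93.3% in the other libraries.

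Use of transcripts was tested with edgeR's diffSpliceDGE, which asks whether a transcript moved unlike the rest of its gene. Of 19 member transcripts tested between colonic and splenic MHCII+ cells, 0 were called, where 0.906% of all transcripts tested were called, and 1 had an unadjusted p under 0.05. It was Nlrc5-204, a form of 4182 coding bases where the longest form has 5748 (log2 −5.14, edgeR adjusted p = 0.16). Ciita-205 and Ciita-201 had log2 changes of 0.02 each relative to their gene. Without colonic MHCII+ library 2, Ciita-201 was called lower (log2 −1.23, adjusted p = 0.0295), so the comparison of its use rests on which library is read. Of 17 member transcripts tested in each integrin-sorted comparison, 0 were called, where 0.499% of all transcripts were called between CD11b+ and CD11c+ cells, 0.407% between CD11b+CD11c+ and CD11c+ cells and 0.264% between CD11b+CD11c+ and CD11b+ cells. An unadjusted p under 0.05 was found for 0, 1 and 1 of them, in both cases Rfx5-206, a fragment of 286 coding bases that is listed at 0 in all but CD11b+ library 1 and CD11c+ library 2. In simulated data the test recovered 35% of transcripts changed 4-fold, so the test could miss changes of that size. The simulated transcripts were drawn independently, without the division of reads between transcripts that share sequence. The uncertainty of that division was not carried into the test either. Its p-values are therefore too small for transcripts that share most of their sequence, as the Ciita forms do.

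Rfxank had 2 coding forms. Rfxank-203 carries 30 bases that Rfxank-201 lacks, shown in capitals between 15 bases of shared sequence on either side (GENCODE M21, gene strand, chromosome 8), because these bases alone separate the forms:
Rfxank-203: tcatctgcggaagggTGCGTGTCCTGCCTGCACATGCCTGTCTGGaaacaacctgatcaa
Its share of Rfxank was 10.8% and 16.1% in colonic MHCII+ libraries and 32.6% and 40.5% in splenic MHCII+ libraries. It was 40.1% and 41.7% in CD11b+CD11c+ libraries, 44.2% and 44.8% in CD11b+ libraries and 32.7% and 27.2% in CD11c+ libraries. Both colonic MHCII+ libraries lay below the other 8, and the difference from splenic cells did not pass the test (log2 −1.43, adjusted p = 1). Rfxap was represented by 2 entries of identical coding sequence, between which its reads were divided evenly, and Rfx5 by 14 entries with 8 distinct coding sequences.

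Rfx5 changed direction on scales that correct for transcript length. Short entries held 84.3% and 85.2% of its TPM in CD11b+CD11c+ libraries, 65.8% and 62.4% in CD11b+ libraries and 72.8% and 77.7% in CD11c+ libraries. Limma on log2(TPM + 0.5) called Rfx5 higher in CD11b+CD11c+ cells than in CD11b+ cells (log2 1.09, adjusted p = 0.0232) and than in CD11c+ cells (log2 0.64, adjusted p = 0.0343), where the count test gave −0.07 and −0.11. By its long transcripts, Rfx5 was at 5.04 and 4.96 TPM in CD11b+CD11c+ libraries, 5.71 and 5.18 TPM in CD11b+ libraries and 5.15 and 5.17 TPM in CD11c+ libraries. The part of the short entries in the change of direction was not tested.

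The genes with profiles most like each regulator were sought among 8898 genes with a mean of at least 10 CPM, by the root mean square difference of log2(CPM + 0.5) profiles centred over the 10 libraries. Nearest to Ciita were Rgs12 (0.263), Hap1 (0.304), Ccnd1 (0.377), Ifi209 (0.41) and Fam69a (0.413), and 0 genes lay within 0.25 of it. Rgs12 had group means of 7.31 CPM in colonic MHCII+ cells, 111.7 CPM in splenic MHCII+ cells, 11.9 CPM in CD11b+CD11c+ cells, 6.28 CPM in CD11b+ cells and 14.2 CPM in CD11c+ cells. Nearest to Nlrc5 were Tmem245 (0.109) and Prkdc (0.123), with 122 genes within 0.25, and nearest to Rfx5 were Zmym3 (0.139), Casp9 (0.146) and Recql5 (0.15), with 124 genes within 0.25. Rfxap had Mak16 (0.0755), Ncdn (0.0835) and Tomm70a (0.0844) nearest, with 1093 genes within 0.25, and Rfxank had Ints8 (0.0613), Ggps1 (0.0888) and Med17 (0.0909), with 1464. A profile that varies more has fewer near neighbours: the spread about the mean was 1.33 for Ciita and 0.312 to 0.622 for the other regulators on the same scale.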

How the data were processed

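Each library came with a kallisto table in which the authors deposited, per transcript, estimated counts and TPM, along with lengths that are coding lengths. Kallisto 0.44.0, sleuth and build mm10 are named in the submitters' processing notes. RNA was prepared with a poly(A) and directional kit, per the labels' protocols. Of 66760 transcripts, 98.483% could be assigned to 22607 genes. The unassigned ones held 0.532% to 0.912% of counts and stayed out.

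Estimated counts were summed per gene, rounded and tested with edgeR 4.0.16 in R 4.3.3 (filterByExpr, TMM, quasi-likelihood F test, Benjamini-Hochberg adjustment over all genes tested), with the 4 MHCII+ and 6 integrin-sorted libraries fitted apart and called at an adjusted p of 0.05. Transcript use was tested with diffSpliceDGE. In simulated CD11b+ and CD11c+ counts the gene test called 66.7% of 2-fold, 100% of 4-fold and 0.0432% of unchanged genes. The simulation changed 108 genes 2-fold and 92 genes 4-fold and gave all genes the same spread. In the data 52% of genes were called between these groups, and the spread differed between genes. These simulated shares therefore need not hold for the data. Alternatives used RLE size factors, no count filter, DESeq2 1.42.0, limma 3.58.1 on log2(TPM + 0.5), an effective length offset, all 10 libraries, a replicate block and leaving out each library.

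The members and gene lists were chosen with earlier results of these data known. Besides the 5 regulators, up to 4 genes a list by mean CPM were to be named. Other list genes named here were picked after their values were seen: H2-Eb2, H2-DMa, H2-DMb1, H2-DMb2, H2-Oa, H2-Ob, Psmb8, Psmb9, Psmb10, Tap1, Tap2, H2-M3, Nfya, Carm1, Kat2b, Cdk7, Irf4 and Rfx6. So were the marker genes Igha, Jchain, Pou2af1, Cd209a, Cd53, Pecam1, Cdh5 and Kdr. Replicates of a group differed by more than sampling noise. One of the genes nearest to Nlrc5 is not reported here.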

Additional observations from a re-analysis of the deposited data

How the results depend on the processing

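Between colonic and splenic MHCII+ cells, the count of calls stayed within 1.5 times and Ciita, Nlrc5, Rfx5 and Rfxap kept their direction and side of the threshold in all 10 alternatives. The share of calls that were higher was 52.46%, against 45.18% with limma and 49% without colonic library 1. Rfxank lost its call when 1 library was left out (log2 −0.82 to −0.69), and 0 to 1 member transcripts were called. Between CD11b+ and CD11c+ cells, leaving out 1 library gave 4372 to 6895 calls and 1 to 4 members, with Nlrc5 at −1.12 to −0.60, Rfxap at −0.93 to −0.68 and Rfxank at −0.68 to −0.24. Nlrc5 was −0.48 with limma (adjusted p = 0.306) and −0.61 with the effective length offset (0.179).

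Between CD11b+CD11c+ and CD11c+ cells, 1 member was called with RLE factors, no filter, DESeq2, all 10 libraries or the replicate block, and 0 to 3 without 1 library, where calls numbered 3190 to 5707. Nlrc5 was −0.46 with RLE (0.0735), −0.46 with no filter (0.0552), −0.46 with DESeq2 (0.0583), −0.25 with limma (0.605), −0.34 with the length offset (0.447), −0.43 with all 10 libraries (0.0536), −0.50 with the block (0.0524) and −0.76 to −0.24 without 1 library. Rfxap ranged from −0.94 to −0.50 and Rfxank from −0.61 to −0.18 without 1 library. Rfx5 reversed to 0.64 with limma and 0.63 with the length offset.

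Between CD11b+CD11c+ and CD11b+ cells, calls numbered 834 with limma, 831 with the length offset and 226 to 771 without 1 library, which gave 0 to 1 members. Ciita was 0.71 with limma (0.142), 0.76 with the length offset (0.123) and 0.74 to 1.16 without 1 library. Rfx5 reversed to 1.09 with limma and 1.16 with the length offset. Among other genes Creb1 reversed to −0.55 with limma between MHCII+ groups, Rfx3 to 0.10 with limma between CD11b+ and CD11c+ cells, and use of Ciita-201 ranged from −1.23 without colonic MHCII+ library 2 to 0.60 without library 1. The cause of these changes was not tested. Limma moved the median of all genes to −0.131 between MHCII+ groups.

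Replicate numbers showed no pairing of CD11b+ libraries with CD11b+CD11c+ or CD11c+ libraries (correlations of deviations of −0.00433 and −0.0604). Between CD11b+CD11c+ and CD11c+ libraries the correlation was 0.302, and no label states whether these libraries are paired. With the replicate block, calls numbered 7316, 6075 and 1427 and class II genes higher in CD11b+CD11c+ than in CD11b+ cells 10. No paired analysis was possible for the MHCII+ groups because both splenic titles share a number. With 2 libraries a group, small changes, above all in the low Rfxap and Rfxank, could be missed.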
